A study of Cunninghamia lanceolata with 2 samples.

Results

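The genes described are the 60 lipoxygenase and jasmonate synthesis genes found among 32731 assembled genes in roots of Chinese fir (Cunninghamia lanceolata), a conifer grown for timber. They were chosen by a rule on annotation, which was set with earlier results of these data known. It took every gene whose product name holds lipoxygenase or whose KEGG entry holds the map of alpha-linolenic acid metabolism (ko00592). Genes that the glycerophospholipid map (ko00564) also holds were left out. The choice gave 18 lipoxygenases, all of them in ko00592, and 42 other genes of that map, under 10 product names in all. RNA-seq was made from roots of seedlings grown in a quarter-strength Hoagland solution for 1 month. They were then kept for 4 months either at low phosphorus (LP), the less than 0.01 mM left in distilled water, or at 1 mM phosphorus (CK, the sufficient control). With 1 library per condition no replicate stands behind any difference, no test was run, and "higher" and "lower" describe these 2 libraries. How many seedlings went into a library is not given in the sources used here.

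Sequencing gave 48502899 estimated reads in LP, against 17848911 in CK, and the median gene had 143 reads in LP and 54 in CK. Reads of the 60 genes made up 0.262% of the LP total and 0.484% of the CK total. Levels are in RPKM (reads corrected for gene length in kilobases and for library size), which allows genes of different length to be compared. In root tissue as a whole, fewer cells of a type and less RNA per cell cannot be told apart. The 116 genes with root terms in their annotation, among them terms for root hairs and root development, summed to 3043 RPKM in LP roots, against 3503 RPKM in CK roots. The 54 green-tissue genes for photosystems and Rubisco summed to 476 RPKM in LP roots, against 889.6 RPKM in CK roots, and 2 of them had 0 reads in CK. Without the plastid gene comp24767_c0 (PsbA) the green-tissue sums were 427 RPKM in LP roots, against 456 RPKM in CK roots. The 49 heat shock genes summed to 1649 RPKM in LP roots, against 2075 RPKM in CK roots. Among the genes of these lists averaging 1 RPKM or more, the LP over CK ratio of sums depended on scaling. From RPKM to TMM scaling (edgeR) it moved from 0.868 to 1.03 for root genes. For green-tissue genes it moved from 0.532 to 0.689, and for heat shock genes from 0.793 to 0.942. The part of these differences between the libraries in the values below was not tested.

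Jasmonates are lipid hormones that plants use in wound and defence responses and in the control of root growth. Their synthesis starts in plastids, where lipases free linolenic acid, a lipoxygenase (LOX) adds oxygen to it, and hydroperoxide dehydratase, better known as allene oxide synthase (AOS), turns the product into an unstable allene oxide. Allene oxide cyclase (AOC) closes the ring. In peroxisomes, 12-oxophytodienoic acid reductase (OPR) reduces that ring compound, OPC-8:0 CoA ligase (OPCL) activates the product, and rounds of beta-oxidation shorten it to jasmonic acid. Other lipoxygenases act outside plastids and lead to other oxylipins, so not every LOX gene serves jasmonate.

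One abundant LOX gene and one abundant AOS gene were lower in LP, and the other genes of the route went both ways. A gene was counted when log2((LP + 1)/(CK + 1)) on RPKM was at least 1 or at most -1, which is called 2-fold here. All 60 genes had a mean of at least 1 RPKM, the limit for counting. In LP, 7 of the 60 passed this limit upwards, against a background of 8.68% of the 30843 genes counted, and 12 passed it downwards, against a background of 16.2%. Among the 7875 genes with a product name, as all 60 have, the background was 9.28% upwards and 10.1% downwards. The shares of the 60 were 11.7% upwards and 20% downwards, near the background of all genes in both directions, with the downward share above that of genes with a product name. The median log2 ratio of the 60 genes was -0.26 and that of all genes -0.16. Scaling by edgeR's TMM factors moved the median of all genes up by 0.20, so a negative log2 ratio of about that size or nearer to 0 can turn positive. The 25 LOX and AOS genes summed to 445 RPKM in LP roots, against 1302 RPKM in CK roots. The 30 genes of the steps from AOC to the end of beta-oxidation summed to 919 RPKM in LP roots, against 964 RPKM in CK roots (ratio 0.954), a total that pools steps of opposite direction, from OPCL at a ratio of 0.722 to AOC at 1.38. By annotation, 15 of the 60 genes carry a jasmonic acid biosynthesis term, and they summed to 572 RPKM in LP roots, against 593 RPKM in CK roots, a ratio of 0.964, with 2 higher and 2 lower by 2-fold. Both of these ratios pass 1 under other scalings, at 1.12 for the 30 genes and 1.13 for the 15 with TMM. No lipoxygenase is among the 15, and the only AOS gene among them is the fragment comp128312_c0, of 208 bases. Their sum therefore says little about the LOX and AOS steps.

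Most of the difference in level came from these 2 genes. Neither carries the jasmonic acid biosynthesis term, but no lipoxygenase does, and among AOS genes only the fragment comp128312_c0 does. Together comp26770_c0 and comp26923_c0 summed to 248 RPKM in LP roots, against 1024 RPKM in CK roots, 17.5% of the level of all 60 genes in LP and 44.1% in CK. On RPKM they held 85.9% of the difference between the libraries in the summed level. The other 58 genes summed to 1169 RPKM in LP roots, against 1296 RPKM in CK roots, a ratio of 0.902. TMM scaling moved the median log2 ratio of all genes up by 0.20, so the direction of this ratio can change. Both genes had a mean above 50 RPKM, where 9.96% of 3023 genes were at least 2-fold higher and 6.62% at least 2-fold lower. Of the 10 members above that mean, these 2 were lower and 0 were higher.

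**Figure D1:**
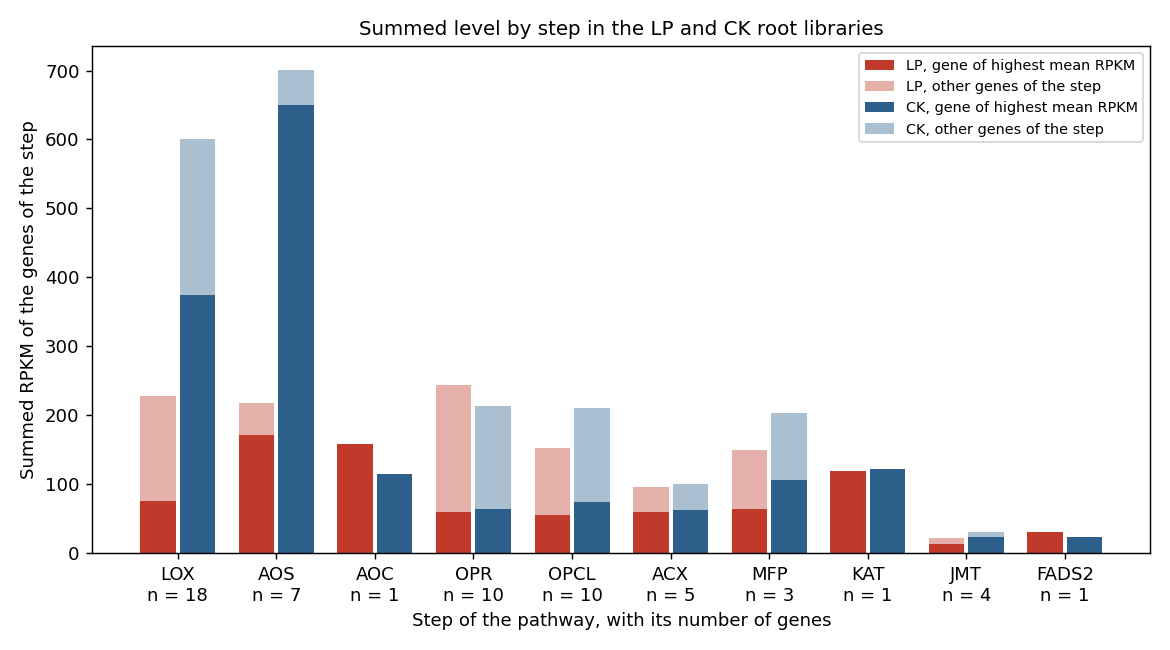
Summed RPKM of the genes of each step in the LP library (red, left bar) and the CK library (blue, right bar), with the gene of highest mean RPKM in full colour, the other genes of the step in pale colour, and the number of genes under each step. LOX is lipoxygenase, AOS hydroperoxide dehydratase, AOC allene oxide cyclase, OPR 12-oxophytodienoic acid reductase, OPCL OPC-8:0 CoA ligase, ACX acyl-CoA oxidase, MFP enoyl-CoA hydratase/3-hydroxyacyl-CoA dehydrogenase, KAT acetyl-CoA acyltransferase, JMT jasmonate O-methyltransferase and FADS2 fatty acid desaturase 2; LOX and AOS stand at 228 and 217 RPKM in LP, against 601 and 701 RPKM in CK.

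Lipoxygenases were the largest of the families, and 15 of the 18 (83.3%) had a log2 ratio below 0, as did 59.7% of all genes counted. By the 2-fold limit 3 were higher and 7 lower, 16.7% and 38.9% of the family, beside 8.68% and 16.2% of all genes and 9.28% and 10.1% of genes with a product name. Summed over the family the level was 228 RPKM in LP roots, against 601 RPKM in CK roots, a ratio of 0.379. Without comp26770_c0 the other 17 genes summed to 152 RPKM in LP roots, against 227.5 RPKM in CK roots, a ratio of 0.667. The family's median log2 ratio was -0.84, with an order-statistic interval of -2.01 to -0.23 that treats the members as independent, and -0.68 relative to the median of all genes.

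The leading gene comp26770_c0, of 3054 bases, had 76.4 RPKM in LP roots, against 374 RPKM in CK roots, on 11737 and 21051 reads. It was 4.89-fold lower in LP, with a 95% interval of 4.79 to 5.01 from its read counts. It ranked 1941st of all genes by level in LP and 204th in CK, and gave 33.5% of the LOX level in LP and 62.2% in CK. Intervals of single genes, here and below, cover counting error only. Its annotation places it in the cytoplasm, as it does for 15 of the 18 genes.

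The 5 other lipoxygenases over 2000 bases, of 2357 to 3500 bases, were all lower in LP by less than 2-fold on RPKM + 1. The gene comp24399_c0, the 1 lipoxygenase with terms for the chloroplast, where jasmonate synthesis begins, had 26.6 RPKM in LP roots, against 45.9 RPKM in CK roots, 1.72-fold lower (1.64 to 1.8). The cytoplasmic comp26516_c0 had 22.7 RPKM in LP roots, against 40.3 RPKM in CK roots, and comp26663_c0 had 19 RPKM in LP roots, against 35.8 RPKM in CK roots. These 3 genes were thus close to each other both in level and in difference, at 1.72-fold to 1.88-fold lower. The last pair, comp26509_c0 with 21.9 RPKM in LP roots, against 25.9 RPKM in CK roots and comp24103_c0 with 17.6 RPKM in LP roots, against 20.6 RPKM in CK roots, stood nearest to no difference, at 1.18-fold and 1.17-fold lower. With TMM scaling the log2 ratio of comp24103_c0 turned to 0.02.

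Against this trend, 3 lipoxygenases passed the 2-fold limit upwards in LP, and none of them was a leading gene in CK. The largest difference was in comp11090_c0, of 1219 bases, with 18.2 RPKM in LP roots, against 3.28 RPKM in CK roots on 1077 and 71 reads, 5.55-fold higher (4.37 to 7.17). In LP it stood beside the genes over 2000 bases in level, while in CK it was among the 5 lowest of the 18. The shorter comp87341_c0 had 7.25 RPKM in LP roots, against 1.57 RPKM in CK roots (4.62-fold, 2.73 to 8.41), and comp149574_c0 had 4.13 RPKM in LP roots, against 1.36 RPKM in CK roots (3.04-fold, 1.77 to 5.59). Both rest on 15 reads in CK.

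**Figure D2:**
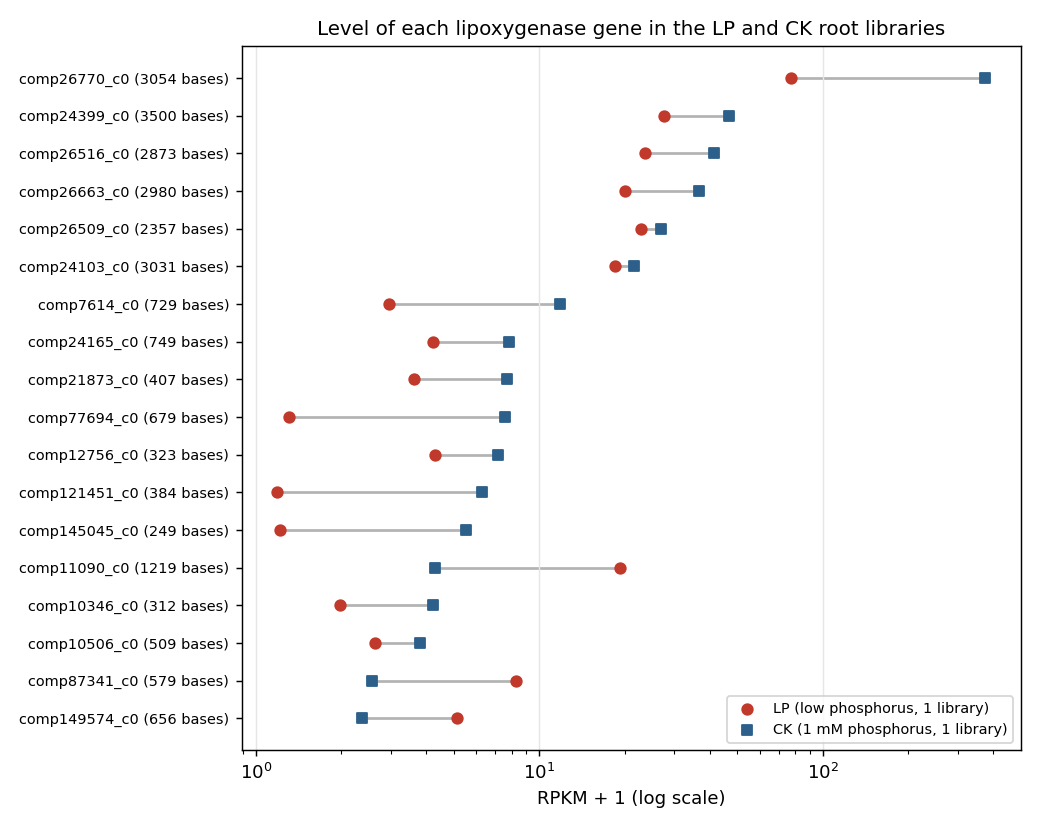
RPKM + 1 of each of the 18 lipoxygenase genes on a log axis in the LP library (red circles) and the CK library (blue squares), 1 library each, ordered by CK level, with gene length in bases. The red circle lies left of the blue square in 15 genes and right of it in comp11090_c0, comp87341_c0 and comp149574_c0.

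The remaining 6 lower lipoxygenases were short and scarce. The gene comp7614_c0, which carries a wounding term, had 1.95 RPKM in LP roots, against 10.9 RPKM in CK roots on 66 and 134 reads, 5.57-fold lower (4.12 to 7.6). Next came comp77694_c0, with 0.31 RPKM in LP roots, against 6.55 RPKM in CK roots on 10 and 75 reads, 20.7-fold lower (10.4 to 43.9). Very few LP reads lay behind comp121451_c0 (3 in LP and 31 in CK, 27.9-fold lower, 8.7 to 143) and comp145045_c0 (2 in LP and 15 in CK, 20.2-fold lower, 4.71 to 182). The calls of comp21873_c0 (2.62 RPKM in LP, 6.67 RPKM in CK) and comp10346_c0 (0.98 RPKM in LP, 3.23 RPKM in CK) were both lost when ratios were scaled by TMM or centred on the median of all genes. Within 2-fold were comp24165_c0 (3.21 RPKM in LP, 6.82 RPKM in CK), comp12756_c0 (3.27 RPKM in LP, 6.16 RPKM in CK) and comp10506_c0 (1.63 RPKM in LP, 2.8 RPKM in CK). The 11 lipoxygenases under 1000 bases summed to 25.8 RPKM in LP roots, against 55.8 RPKM in CK roots, so they hardly weigh in the family's level. Short assembled genes can be pieces of a longer transcript, and which of them belong together was not tested.

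Gene length moved with the log2 ratio over the whole table. Among genes under 1000 bases 11.2% were at least 2-fold higher and 21.8% at least 2-fold lower. Among genes of at least 1000 bases the shares were 4.72% and 7.39%. Of the 11 short lipoxygenases 2 were higher and 6 lower, and of the 7 long ones 1 was higher and 1 lower. In the class from 2000 to under 3000 bases the median log2 ratio of 3118 genes was -0.23 with a lower quartile of -0.46, and its 3 lipoxygenases had a median of -0.80. In the class from 3000 to under 4000 bases the median of 1071 genes was -0.49 with a lower quartile of -0.67 and a 5th percentile of -1.15. There comp24399_c0 (-0.76) lay just under the lower quartile, comp24103_c0 (-0.22) above the median and comp26770_c0 (-2.28) below the 5th percentile. The part of gene length in the family's median was not tested.

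**Figure D3:**
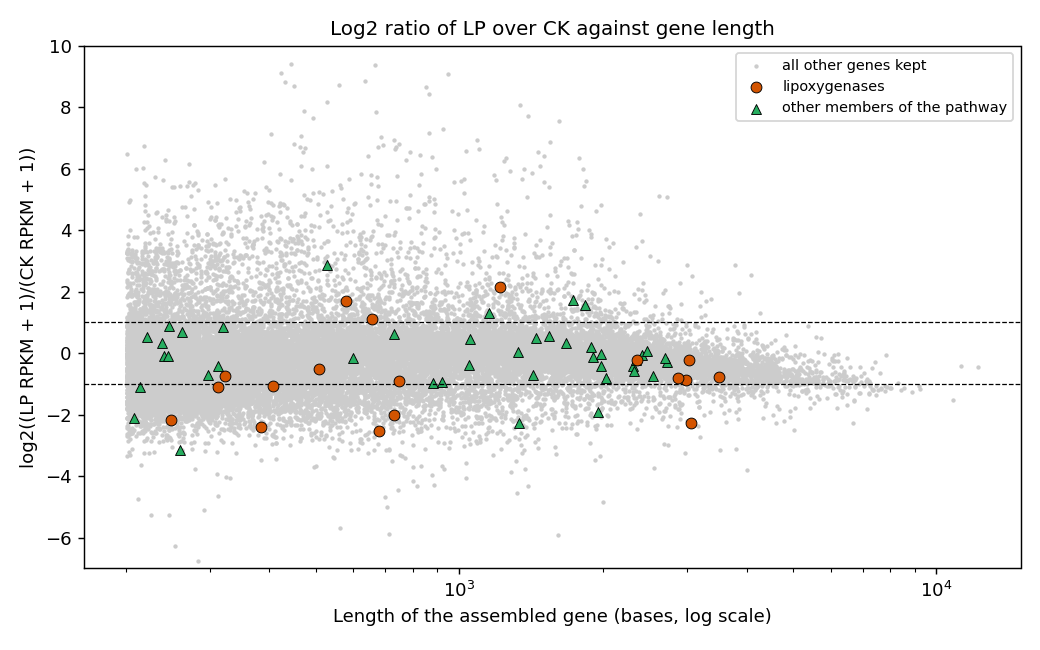
Log2 ratio of LP over CK on RPKM + 1 against the length of the assembled gene in bases (log axis), for the 18 lipoxygenases (orange circles), the 42 other members (green triangles) and all other genes counted (grey points), with dashed lines at 1 and -1. The grey cloud is wide for short genes and drifts below 0 beyond 2000 bases; comp26770_c0, at 3054 bases and -2.28, lies below the 5th percentile of its length class (-1.15).

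The next enzyme, AOS, also had one dominant gene lower in LP. Of its 7 genes 1 was higher and 3 lower by 2-fold, or 14.3% and 42.9%, beside 8.68% and 16.2% of all genes. Of the 3 lower genes 2 were fragments under 1000 bases, where 21.8% of all genes were lower. The 7 genes summed to 217 RPKM in LP roots, against 701 RPKM in CK roots, a ratio of 0.31. The gene comp26923_c0, of 1950 bases, has chloroplast terms. Like every other AOS gene except comp128312_c0, it has no jasmonate synthesis or wounding term. It had 172 RPKM in LP roots, against 650 RPKM in CK roots on 16619 and 23064 reads. It was 3.79-fold lower (3.71 to 3.87), ranked 730th in LP and 82nd in CK, and was the most abundant of the 60 genes in both libraries. It made up 79% of the AOS level in LP and 92.8% in CK, and the other 6 genes summed to 45.5 RPKM in LP roots, against 50.7 RPKM in CK roots. In its length class, 1000 to under 2000 bases, the 5th percentile of all log2 ratios was -1.31 and this gene had -1.92.

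The other AOS genes went both ways. The long comp23731_c0 had 22.1 RPKM in LP roots, against 30 RPKM in CK roots, 1.35-fold lower (1.26 to 1.46). The long comp24299_c0 had 13.6 RPKM in LP roots, against 3.44 RPKM in CK roots on 1165 and 108 reads, 3.96-fold higher (3.25 to 4.86). The 3 long AOS genes thus differed in 3 ways, the most abundant being lower, the middle one within 2-fold and the scarcest in CK higher. Of the 4 fragments of 208 to 320 bases, comp78810_c0 had 0 reads in LP and 28 in CK, at least 25.2-fold lower against a floor of 3 reads, and comp128312_c0 had 3 reads in LP and 13 in CK, 11.7-fold lower (3.21 to 64). On 8 CK reads each, comp94553_c0 had 3.94 RPKM in LP roots, against 1.72 RPKM in CK roots, and comp107377_c0 had 5.41 RPKM in LP roots, against 2.46 RPKM in CK roots. Both lay within 2-fold on RPKM + 1 and passed 2-fold once ratios were centred on the median of all genes.

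AOC, the step after AOS, had a single gene and did not share the direction of the leading LOX and AOS genes. The gene comp21984_c0 had 158 RPKM in LP roots, against 114 RPKM in CK roots on 7996 and 2116 reads, 1.38-fold higher (1.32 to 1.45). In CK the leading LOX and AOS genes stood above AOC, with 374 and 650 RPKM against 114 RPKM. In LP the leading AOS gene, at 172 RPKM, was close to AOC at 158 RPKM, and the leading LOX gene, at 76.4 RPKM, was below it.

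The 10 OPR genes had 8 log2 ratios above 0, against 40.2% of all genes counted, and a median of 0.45 (-0.11 to 1.32). By the 2-fold limit 2 were higher and 0 lower, or 20% and 0%, beside 8.68% and 16.2% of all genes. Over the 10 genes the sum was 244 RPKM in LP roots, against 214 RPKM in CK roots. The 3 genes with peroxisome and jasmonate synthesis terms, the kind of OPR that acts on the jasmonate precursor in Arabidopsis, summed to 82.6 RPKM in LP roots, against 92.6 RPKM in CK roots. The ratio of these sums was 0.892, near enough to 1 that its direction can change with scaling. Of the 3 genes, comp22403_c0 had 59.5 RPKM in LP roots, against 64.5 RPKM in CK roots, 1.08-fold lower (1.03 to 1.14), a direction that flips under TMM scaling and under centring. With the same terms, comp25804_c0 had 13.9 RPKM in LP roots, against 25 RPKM in CK roots, 1.8-fold lower (1.6 to 2.02), and comp13350_c0 had 9.11 RPKM in LP roots, against 3.04 RPKM in CK roots, 3-fold higher (2.3 to 3.97). The 3 peroxisomal genes therefore lay on both sides.

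Among OPR genes without a peroxisome term, the abundant comp18784_c0 had 55.7 RPKM in LP roots, against 37.2 RPKM in CK roots, 1.5-fold higher (1.4 to 1.6). The equally abundant comp25387_c0 had 59.5 RPKM in LP roots, against 52 RPKM in CK roots, and comp25193_c0 had 18.9 RPKM in LP roots, against 18.3 RPKM in CK roots. One short gene with cytoplasm and wounding terms, comp97465_c0, had 6.31 RPKM in LP on 148 reads, against none in CK, a difference of at least 18.3-fold when CK is set to a floor of 3 reads. The other gene with those terms, comp53476_c0, had 6.99 RPKM in LP roots, against 4.18 RPKM in CK roots. The short genes comp15791_c0 and comp55847_c0 had 7.2 and 7.21 RPKM in LP, against 4.06 and 5.48 RPKM in CK.

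OPCL, which activates the reduced precursor for beta-oxidation, had 9 of 10 genes below 0, against 59.7% of all genes counted, and 8 of 10 under TMM scaling and under centring. Its median log2 ratio was -0.57, with an order-statistic interval of -1.11 to -0.11 that treats the members as independent. This interval is on RPKM and contains the median of all genes, -0.16. Its upper end is the value of comp57136_c0, which turns to 0.10 with TMM scaling and 0.05 with centring. The family's median was -0.47 with TMM scaling and -0.41 with centring. By the 2-fold limit 1 gene was higher and 2 lower, or 10% and 20%, near the 8.68% and 16.2% of all genes. The summed level was 152 RPKM in LP roots, against 211 RPKM in CK roots. The leading genes differed little, with comp26765_c0 at 55.6 RPKM in LP roots, against 74.8 RPKM in CK roots (1.35-fold lower, 1.28 to 1.41) and comp26634_c0 at 42.2 RPKM in LP roots, against 49.5 RPKM in CK roots. The clearest difference was in comp24427_c0, of 1331 bases, with 1.56 RPKM in LP roots, against 11.4 RPKM in CK roots on 101 and 271 reads, 7.31-fold lower (5.79 to 9.28). The exception, comp14084_c0, had 11.2 RPKM in LP roots, against 3.09 RPKM in CK roots on 1014 and 103 reads, 3.61-fold higher (2.94 to 4.46). All 4 of these genes carry peroxisome, jasmonate synthesis and wounding terms, so the 2 that stood apart share their annotation with the 2 abundant ones.

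The other 6 OPCL genes were under 1000 bases. The gene comp6936_c0 had 4.3 RPKM in LP roots, against 10.4 RPKM in CK roots on 31 and 28 reads, 2.43-fold lower (1.43 to 4.25), a call lost under TMM scaling and under centring. Just inside the limit were comp19447_c0 (10.3 RPKM in LP, 21.1 RPKM in CK) and comp14247_c0 (3.91 RPKM in LP, 8.5 RPKM in CK). The 3 others were comp10175_c0 (12.9 RPKM in LP, 17.6 RPKM in CK), comp52464_c0 (4.78 RPKM in LP, 8.53 RPKM in CK) and comp57136_c0 (5.25 RPKM in LP, 5.73 RPKM in CK), and the ratio of the last changes direction with scaling.

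Beta-oxidation, which jasmonate synthesis shares with the breakdown of fatty acids, stayed within 2-fold in all 9 genes. The genes summed to 365 RPKM in LP roots, against 426 RPKM in CK roots, with a median log2 ratio of -0.15, which turns to 0.10 with TMM scaling and 0.01 with centring. Acyl-CoA oxidase opens each round, and its 5 genes summed to 96.4 RPKM in LP roots, against 100 RPKM in CK roots. Of these, comp22523_c0, which carries jasmonate synthesis and wounding terms, had 59.9 RPKM in LP roots, against 62.1 RPKM in CK roots, 1.04-fold lower (0.991 to 1.08), a direction that flips under both other scalings. Next in level, comp26132_c0 had 25.4 RPKM in LP roots, against 23.9 RPKM in CK roots. The 3 scarcer genes, comp5269_c0, comp13747_c0 and comp64321_c0, ranged from 2.44 to 6.18 RPKM in LP and from 1.43 to 9.69 RPKM in CK. The ratio of the acyl-CoA oxidase sums passes 1 with TMM scaling (1.13) and with centring (1.08).

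The middle reactions of each round are run by a multifunctional enoyl-CoA hydratase/3-hydroxyacyl-CoA dehydrogenase, whose 3 genes summed to 149.5 RPKM in LP roots, against 204 RPKM in CK roots. The gene comp15933_c0 had 64.1 RPKM in LP roots, against 106.8 RPKM in CK roots, 1.67-fold lower (1.61 to 1.73), the largest difference among the 7 beta-oxidation genes of at least 1000 bases. The others were comp22749_c0 (66 RPKM in LP, 73.3 RPKM in CK, flipping with scaling) and comp20554_c0 (19.4 RPKM in LP, 23.9 RPKM in CK). The thiolase that closes each round, acetyl-CoA acyltransferase comp25662_c0, had 119 RPKM in LP roots, against 122 RPKM in CK roots, a ratio of 0.98 (0.947 to 1.02). By RPKM it was the most even of the 10 members averaging over 50 RPKM, and its ratio passes 1 under TMM scaling (1.16) and under centring (1.09).

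**Figure D4:**
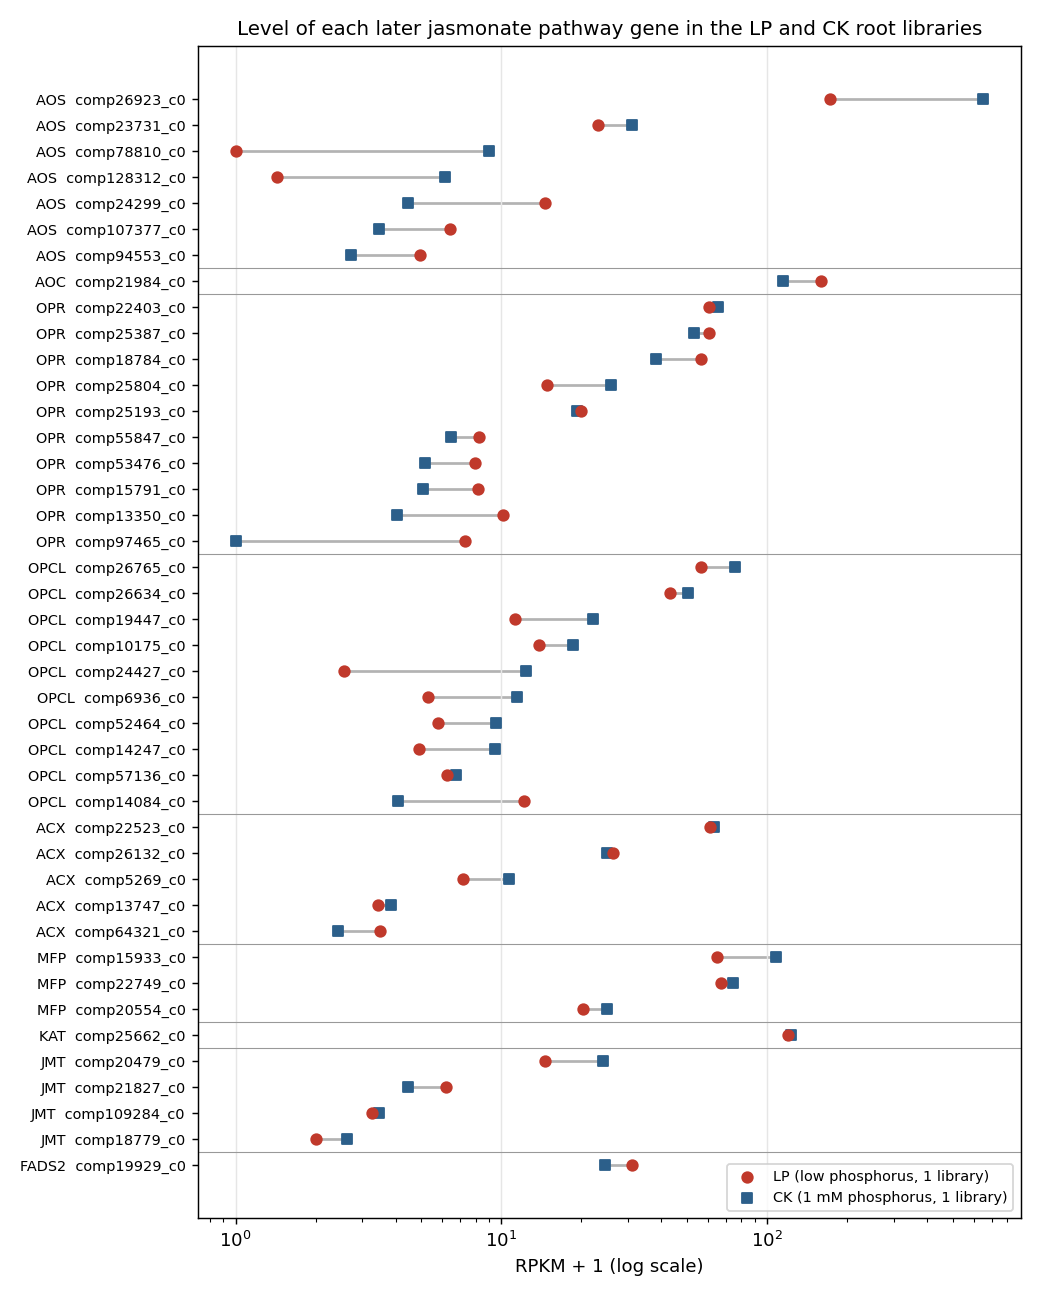
RPKM + 1 of the 42 other members on a log axis in the LP library (red circles) and the CK library (blue squares), 1 library each, grouped by step from AOS at the top to FADS2 at the bottom, with a gene at 0 reads drawn at 1. The leading AOS gene comp26923_c0 shows the widest gap among abundant genes (172 RPKM in LP, 650 RPKM in CK), whereas the 9 ACX, MFP and KAT genes lie close together.

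Jasmonate O-methyltransferase makes the volatile methyl jasmonate, and its 4 genes stayed within 2-fold, with sums of 22.1 RPKM in LP roots, against 30.7 RPKM in CK roots. The most abundant, comp20479_c0, had 13.6 RPKM in LP roots, against 23.1 RPKM in CK roots, 1.7-fold lower (1.53 to 1.88). Of the others, comp21827_c0 and comp109284_c0 carry terms for the methylation of the auxin indole acetic acid in place of jasmonate, so the product name is uncertain for them. They had 5.2 and 2.27 RPKM in LP, against 3.45 and 2.47 RPKM in CK, and comp18779_c0 had 1 RPKM in LP roots, against 1.63 RPKM in CK roots. The single gene annotated as fatty acid desaturase 2, comp19929_c0, had 30.1 RPKM in LP roots, against 23.5 RPKM in CK roots, 1.28-fold higher (1.15 to 1.43).

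Genes for the release of substrate were looked at beside the 60. The 6 phospholipase A2 genes, which free fatty acids from membrane phospholipids and lie in both ko00592 and ko00564, all had a log2 ratio above 0, as did 40.2% of all genes counted. Of the 6 genes 2 were at least 2-fold higher, or 33.3%, beside 8.68% of all genes. Under 1000 bases, the length of 5 of the 6, 11.2% of all genes were higher. Together they reached 317 RPKM in LP roots, against 99 RPKM in CK roots, a ratio of 3.21. The largest part was comp23451_c0 with 149 RPKM in LP roots, against 0.44 RPKM in CK roots on 4638 and 5 reads, and comp9829_c0 had 19.8 RPKM in LP roots, against 1.93 RPKM in CK roots, 10.3-fold higher (5.8 to 20.1). Without comp23451_c0 the other 5 genes summed to 168 RPKM in LP roots, against 98.5 RPKM in CK roots. The abundant comp6332_c0 had 97.6 RPKM in LP roots, against 59.8 RPKM in CK roots, 1.63-fold higher (1.53 to 1.75), and comp6170_c0 had 24.2 RPKM in LP roots, against 12 RPKM in CK roots. The other 2, comp11595_c0 (13.8 RPKM in LP, 13.3 RPKM in CK) and comp10975_c0 (12.5 RPKM in LP, 11.5 RPKM in CK), were nearly even.

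Linolenic acid is made by desaturases, of which the omega-6 enzymes form its precursor linoleic acid. Of 4 omega-6 genes, the abundant comp27856_c0 had 154 RPKM in LP roots, against 70.5 RPKM in CK roots, 2.18-fold higher (2.08 to 2.29), and comp16451_c0 was nearly even, with 4.54 RPKM in LP roots, against 4.37 RPKM in CK roots. The other 2 were short and had no reads in CK, comp77894_c0 with 35 reads in LP and comp128803_c0 with 9. The 2 omega-3 desaturases, which introduce the last double bond, lay on both sides of no difference. The gene comp7202_c0 had 33.7 RPKM in LP roots, against 28.1 RPKM in CK roots, 1.2-fold higher (1.11 to 1.3). The gene comp16315_c0 had 25.6 RPKM in LP roots, against 29.4 RPKM in CK roots, 1.15-fold lower (1.07 to 1.23), less than the shift between scalings. In all, 39 further genes of the KEGG map of unsaturated fatty acids (ko01040) gave 34 that could be counted. By the 2-fold limit 6 were higher and 0 lower, or 17.6% and 0%, beside 8.68% and 16.2% of all genes. Of the 39 genes 8 had 0 reads in CK, the library with fewer reads. Among them were comp10090_c0 (57.8 RPKM in LP) and comp115199_c0 (8.86 RPKM in LP), both passing the limit upwards. Their product name is stearoyl-CoA desaturase (delta-9 desaturase), not an omega-6 or omega-3 enzyme. The upward share of this map therefore rests in part on genes without CK reads.

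Jasmonate perception and response were looked for by annotation. A search for the names of the receptor, its repressors, the main transcription factor and the conjugating enzyme matched 0 genes. Of 28 genes outside the 60 with a jasmonate signalling term, 1 was at least 2-fold higher and 7 lower, or 3.57% and 25%, beside 8.68% and 16.2% of all genes. Of the 7 lower genes 6 were under 1000 bases, where 21.8% of all genes were lower. The median log2 ratio of the 28 was -0.34 (-0.10 with TMM scaling, -0.18 with centring). In Arabidopsis jasmonate is perceived by an F-box protein of an SCF ubiquitin ligase. The 3 genes with both SCF ligase and jasmonate signalling terms, a set chosen after their values were seen, were comp16058_c0 (76.3 RPKM in LP, 89.2 RPKM in CK), comp13609_c0 (24.4 RPKM in LP, 27.9 RPKM in CK) and comp6077_c0 (4.8 RPKM in LP, 16.6 RPKM in CK). The last was 3.46-fold lower (2.78 to 4.31), and the abundant pair 1.17-fold and 1.14-fold lower, differences about as small as the shift between scalings.

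The authors' deposited table marks 14 of the 60 genes with its own yes call, 4 higher and 10 lower in LP, against a background of 5.27% and 5.17% of all genes. In the authors' deposited table every yes call has an unadjusted p-value of at most 0.05, with an FDR of up to 0.35. In the authors' deposited table an FDR of 0.05 or lower is given for 4 of the 14, namely comp26770_c0, comp26923_c0, comp11090_c0 and comp78810_c0. That test compared 2 libraries, not the phosphorus levels.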

How the data were processed

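RNA-seq of 1 root library at low phosphorus and 1 at sufficient phosphorus was taken from 1 table of 32731 assembled genes of 201 to 12214 bases. Per the file headers, the authors deposited estimated counts per gene and RPKM computed from them, with their own p-value, FDR and yes or no call for the comparison of the libraries. Which assembler, aligner, counting tool and test served is not given in the sources used here. Product names, KEGG maps and GO terms were used as deposited and were not checked against sequence.

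The log2 ratio was log2((LP RPKM + 1)/(CK RPKM + 1)) for genes averaging 1 RPKM or more, and 2-fold was the limit for counting. Folds are ratios of RPKM, with 95% exact binomial (Clopper-Pearson) intervals from the estimated counts rounded to whole numbers, and a library at 0 reads was set to 3 reads. The interval of a list's median uses order statistics. Alternatives were pseudocounts of 0.1 and 0.5, other filters, TMM factors (edgeR 4.0.16 in R 4.3.3, on rounded estimated counts), centring on the median of all genes, and inclusion of the ko00564 genes. Ratios and scaling were tested on simulated data. Python 3.11.15, pandas 2.3.3, scipy 1.17.1 and matplotlib 3.10.9 were used.

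The members and lists were chosen with earlier results of these data known. Genes named were all lipoxygenases, other members at least 2-fold apart that averaged 2 RPKM or more and had at least 10 reads in 1 library, and the 3 most abundant genes of each product name, 46 of the 60. The 14 other members and further list genes were named after their values were seen. From lists outside the 60 with more than 6 genes, the 2 highest and 2 lowest log2 ratios among genes averaging 2 RPKM or more were eligible.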

Additional observations from a re-analysis of the deposited data

How the results depend on the processing

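No paired analysis was possible because each group has 1 library, and for the same reason no library could be left out. Moving from RPKM to TMM scaling shifted the median log2 ratio of all genes by 0.20, to 0.05, so small differences change direction with the scaling. Of the 46 named genes 6 changed sign under TMM and 5 under centring, and 3 calls were lost under each.

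With TMM scaling the median log2 ratio of the 60 genes was -0.049 and the LP over CK ratio of summed levels 0.713 for the 60 genes, 0.445 for lipoxygenases and 0.808 for the other members. With centring these summed ratios were 0.681, 0.423 and 0.771. Among genes averaging 5 RPKM or more, 4 of the 60 genes were higher and 5 lower, among them 1 higher and 2 lower lipoxygenases and 3 lower other members, and the summed ratio of lipoxygenases was 0.369. When each library had to give 10 reads or more, 7 genes were lower, 4 lipoxygenases and 3 others, and the lipoxygenase ratio was 0.389. With the ko00564 genes included the summed ratio of the members was 0.717.

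Some settings were added after the data were seen. Among genes of at least 1000 bases 4 members were higher and 3 lower, with 1 lipoxygenase in each direction and 2 lower other members, and the lipoxygenase ratio was 0.371. Without comp26770_c0 and comp26923_c0 the ratio on RPKM was 0.902 for all members, 0.667 for lipoxygenases and 0.951 for the others. The ratios of 0.902 and 0.951 are near enough to 1 to change direction with scaling. The stricter filters and the length limit leave fewer genes to count. Pseudocounts and the absence of a filter left the counts within 1.5 times their value, and no called gene changed sign under any setting. Below about 10 reads in a library the fold intervals are wide, so for the short genes at that depth the size of a difference is not determined.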

Other observations

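Methyl jasmonate esterases turn methyl jasmonate back into jasmonic acid. Of 14 genes with that term 13 could be counted, with 3 at least 2-fold higher and 0 lower in LP roots. These shares were 23.1% and 0%, beside 8.68% and 16.2% of all genes. Of the 14 genes 10 had at least 1000 bases, where 4.72% of all genes were higher and 7.39% lower. The summed level of the 14 was 635 RPKM in LP roots and 474 RPKM in CK roots. The gene comp19479_c0 had 21.9 RPKM in LP roots and 4.85 RPKM in CK roots, 4.52-fold higher. At the other end, comp26105_c0 had 26.3 RPKM in LP roots and 39.2 RPKM in CK roots.

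Among 66 genes outside the 60 that carry a response to jasmonic acid term, 63 could be counted, and 6 were higher and 8 lower by 2-fold, or 9.52% and 12.7%. The gene comp13754_c0, an EREBP-like transcription factor, had 2.43 RPKM in LP roots and 13 RPKM in CK roots. In the other direction, comp74004_c0 had 9.81 RPKM in LP roots and 1.71 RPKM in CK roots. Over all 114 genes with a jasmonate term outside the 60, 110 could be counted, of which 10 were higher and 14 lower, or 9.09% and 12.7%, and the median log2 ratio was -0.08, or 0.13 with TMM scaling.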
